A study of Caenorhabditis elegans with 8 samples.

Results

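The str and srj genes of Caenorhabditis elegans encode chemoreceptors, and 232 protein-coding genes carry such a name (193 str and 39 srj, the members) among 19971 protein-coding genes of the 6 nuclear chromosomes. They were chosen by gene symbol alone, so odr-10, a str class receptor named for its odour response, is not among them. The question was how often a binding peak of the transcription factor SKN-1 was called at these genes, and whether this differed between SKN-1 forms. Chromatin immunoprecipitation with sequencing was done on whole animals grown at 20°C, in worms that carried the SKN-1gf(lax188) gain-of-function allele or wild-type SKN-1, with SKN-1 tagged with green fluorescent protein (GFP) in both genotypes. The precipitated samples, 2 per genotype, have 1 peak list each, called here GF 1, GF 2, WT 1 and WT 2. The labels name 4 further samples without antibody, which were not analysed here. Whether the replicates are separate cultures, the age of the animals and the promoter of the tagged protein are not given in the labels.

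Worm chemoreceptors are seven-transmembrane G protein-coupled receptors that sit mostly on the cilia of sensory neurons, where each neuron uses many of them to detect odours and pheromones. They form large, fast-evolving families that lie in clusters, above all on chromosome V, and the str and srj classes belong to the Str superfamily together with srh, sri and srd. Olfactory receptors of this kind act through G proteins, cyclic nucleotide or TRPV channels. SKN-1 is related to mammalian Nrf2 and is known for stress and detoxification responses in the intestine and for a role in the paired sensory neurons named ASI. In chromatin of whole animals, a few neurons contribute few of the nuclei.

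GF 1 held 25007 peaks, GF 2 fewer than 1000, WT 1 15943 and WT 2 29541, with median fold enrichments between 1.46 and 1.55. The fold enrichment is the authors' value for each peak over the background of their peak caller. No read numbers come with the lists, so their depth is unknown, and GF 2 stands apart as the shortest. The peaks in the WT 2 list carry replicate 1 in their names, so its place as replicate 2 rests on the sample record. Results are given with and without GF 2 where they rest on it.

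Fewer str and srj genes had a SKN-1 summit than genes of the same chromosome and similar length, in each of the 4 lists. A summit, the highest point of a peak, was counted when it lay in the gene or within 1000 bp of it. In GF 1, 101 of the 232 genes (43.5%) had one, against 64.0% of all protein-coding genes and 55.9% of similar genes. In GF 2 there were 3 (1.29%), against 5.46% of all genes and 3.76% of similar genes. The short GF 2 list thus reached almost none of them.

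In WT 1, 72 of the 232 genes (31.0%) had a summit, against 47.3% of all genes and 37.2% of similar genes. In WT 2 there were 125 (53.9%), against 70.9% of all genes and 64.4% of similar genes. Similar genes are the other protein-coding genes of the same chromosome and of the same of 10 classes of gene length. The members' share over that of similar genes was 0.78 in GF 1 (exact binomial 95% interval 0.66 to 0.90), 0.34 in GF 2 (0.071 to 0.99), 0.83 in WT 1 (0.68 to 1.01) and 0.84 in WT 2 (0.73 to 0.94). The intervals cover counting error over genes of 1 list and take the share of similar genes as fixed. Genes of a cluster are not independent of each other, so no test of the members against other genes was made.

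No difference between the genotypes was shown at these genes. The mean share of members with a summit was 22.4% in GF and 42.5% in WT, a difference of -20.0 percentage points. It rested on GF 2, the short list: without it the difference was 1.08 points, with 43.5% in GF and 42.5% in WT. Relative to similar genes the mean ratio was 0.56 in GF and 0.84 in WT, a difference of -0.275. Without GF 2 that difference was -0.058, with 0.78 in GF and 0.84 in WT. With the other lists cut to the number of peaks in GF 2, strongest first, 3 members had a summit in GF 1, 3 in GF 2, 5 in WT 1 and 2 in WT 2. These were 1.29%, 1.29%, 2.16% and 0.86% of the members. Similar genes had a summit in 3.74%, 3.76%, 2.98% and 3.05% of cases in the same lists. An exact two-sided permutation test over the 4 lists gave p = 0.667 for the share and p = 0.333 for the ratio, and 0.333 is the smallest p that 2 lists against 2 can give.

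The str genes had lower shares than the srj genes in each list, a description without a test. Of the 193 str genes, 77 had a summit in GF 1 (39.9%), 2 in GF 2 (1.04%), 56 in WT 1 (29%) and 99 in WT 2 (51.3%). These were 0.71, 0.27, 0.78 and 0.80 of the shares of similar genes in that order, so that str genes lay below them in each list. Of the 39 srj genes, 24 had a summit in GF 1 (61.5%), 1 in GF 2 (2.56%), 16 in WT 1 (41.0%) and 26 in WT 2 (66.7%). Their ratios were 1.12, 0.81, 1.14 and 1.05, and each interval included 1. Among the strongest 5000 peaks the srj ratio was 0.33 in GF 1 (2 genes), 1.10 in WT 1 (6 genes) and 0.48 in WT 2 (3 genes), and with so few genes each interval still included 1. At that length the str ratio was 0.54 in GF 1, 0.59 in WT 1 and 0.66 in WT 2, each below 1.

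**Figure D1:**
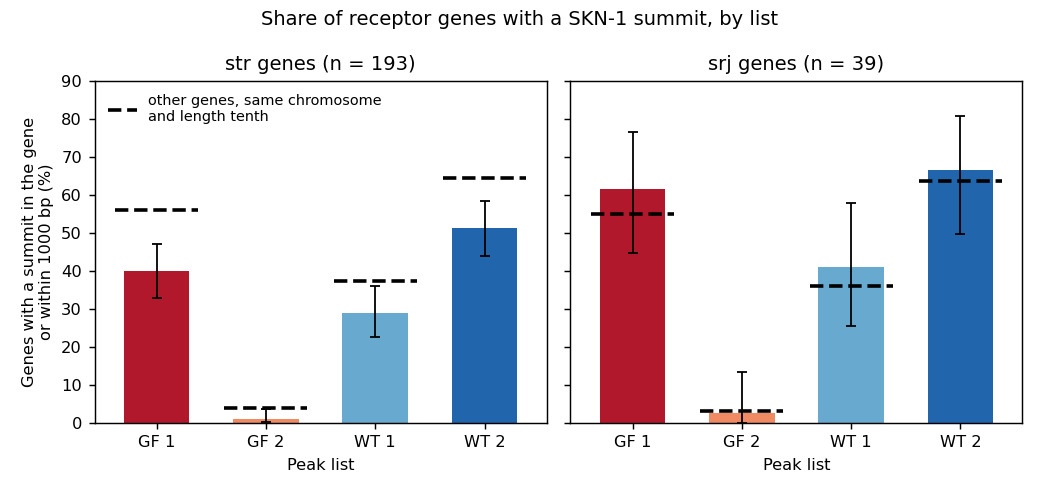
Percent of str genes (left) and srj genes (right) with a summit in the gene or within 1000 bp, for each peak list, as bars with exact binomial 95% intervals. The dashed lines mark other genes of the same chromosome and length class; the str bars lie below the lines in all 4 lists, while the srj intervals include them.

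In the other classes of the Str superfamily the ratio to similar genes was 1.05 in GF 1, 0.998 in WT 1 and 1.001 in WT 2 for 220 srh genes, and 1.31, 1.61 and 1.14 for 61 sri genes. The sri intervals lay above 1 in GF 1 (1.12 to 1.44) and WT 1 (1.31 to 1.86) and included 1 in WT 2 (0.97 to 1.26). Against genes within 100 kb the sri ratios were 1.09, 1.13 and 1.07, with intervals that included 1. For 67 srd genes the ratio to similar genes was 0.82, 0.66 and 0.86. The srd intervals included 1 in GF 1 (0.60 to 1.04) and WT 2 (0.67 to 1.05) and lay below 1 in WT 1 (0.41 to 0.95). GF 2 held a summit at 3 srh genes (1.36%, against 3.53% of similar genes), a ratio of 0.39 with an interval of 0.080 to 1.11. It held none at the sri genes, which allows a share of up to 4.92%, against 4.67% of similar genes. None of the srd genes had one either (up to 4.48%, against 3.81% of similar genes). Shares below those of similar genes in all 3 long lists were thus seen for the str and srd classes but not for every class. The str intervals lay below 1 in each of these lists (upper bounds 0.84, 0.96 and 0.91), unlike those of srd. No test of the difference between classes was made.

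Shares also varied with position on the chromosomes. Chromosome V holds 193 of the members and chromosome IV 30, with 5 on X, 2 on III and 1 each on I and II. On chromosome IV, 6 of 30 members had a summit in GF 1 (20.0%), 1 in GF 2, 4 in WT 1 (13.3%) and 10 in WT 2 (33.3%). Other genes within 100 kb of these members had a summit in 58.6% of cases in GF 1, 32.6% in WT 1 and 65.0% in WT 2. The chromosome IV receptors were thus at 0.34, 0.41 and 0.51 of their neighbours in the long lists.

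On chromosome V, cut into 3 parts of equal length, the middle had the lowest shares of members in the long lists. Of the 48 members there, 13 had a summit in GF 1 (27.1%), 8 in WT 1 (16.7%) and 21 in WT 2 (43.8%), and none in GF 2, which allows a share of up to 6.25%. Other genes of that middle part also had lower shares than those of the arms in the long lists, with 47.2% in GF 1, 29.5% in WT 1 and 59.7% in WT 2. In GF 2 the order was the reverse, with 4.40% in the middle, 3.81% on the left and 2.97% on the right. In the left part, 44, 36 and 49 of 84 members had a summit in GF 1, WT 1 and WT 2 (52.4%, 42.9% and 58.3%). In the right part these were 36, 21 and 42 of 61 members (59.0%, 34.4% and 68.9%). Against genes within 100 kb the ratios were 0.86, 0.99 and 0.86 on the left, 0.59, 0.58 and 0.77 in the middle and 0.94, 0.81 and 1.01 on the right. The 95% intervals lay below 1 on chromosome IV in GF 1, WT 1 and WT 2 (upper bounds 0.66, 0.94 and 0.81), and in the middle of chromosome V in GF 1 alone (0.33 to 0.91). The middle intervals of WT 1 (0.26 to 1.06) and WT 2 (0.52 to 1.04) and those of both arms included 1, and the places were not tested against each other.

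**Figure D2:**
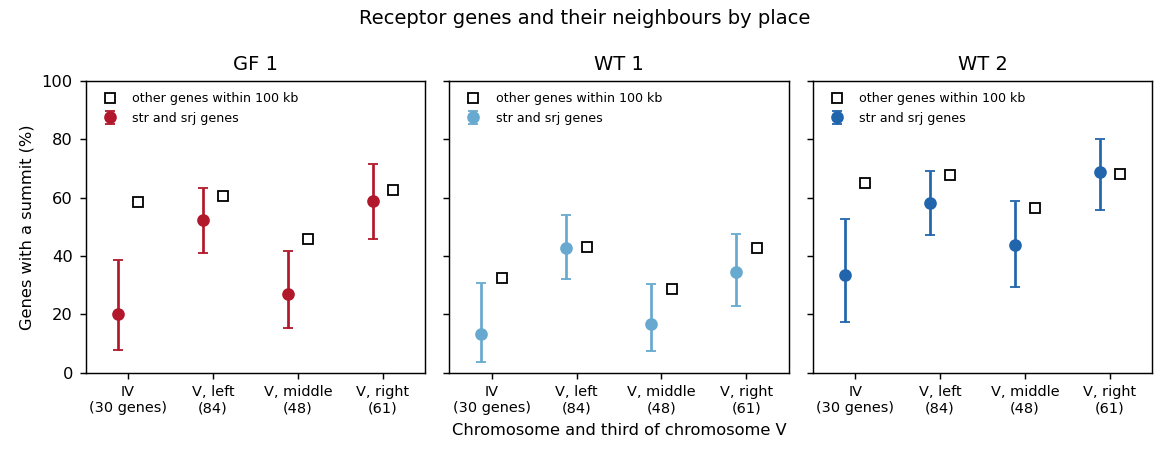
Percent of str and srj genes with a summit (filled points, exact binomial 95% intervals) and of other protein-coding genes within 100 kb (open squares), by chromosome IV and the left, middle and right parts of chromosome V, for GF 1, WT 1 and WT 2. The gap is widest on chromosome IV, where 20.0%, 13.3% and 33.3% of 30 members had a summit in these lists.

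A stretch of 8 neighbouring members on chromosome V, str-265, str-119, str-120, str-267, str-258, str-76, str-257 and str-154, had no summit in any list. They lie in the longest stretch of the genome without a peak in any of the 4 lists, chrV:2346436-2564272 (217.8 kb) in the coordinates of the lists, whose processing notes name build ce10. The second longest such stretch, on the same chromosome, was 86.0 kb. The first holds 39 other protein-coding genes, 9 of them chemoreceptor genes, so the lack of peaks was not limited to str genes. The peak-free stretch around this place was 222.2 kb in GF 1, 803.3 kb in GF 2, 219.7 kb in WT 1 and 220.4 kb in WT 2. The lists give no read coverage, so a lack of reads and a lack of enrichment there cannot be told apart. Without the genes of this stretch the members' ratio was 0.80 in GF 1, 0.35 in GF 2, 0.86 in WT 1 and 0.86 in WT 2.

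A second run of 9 members, on chromosome IV (str-161, str-159, str-156, str-155, str-158, str-153, str-168, str-169 and str-163), also had no summit in any list. There, 4 other protein-coding genes lie between the members, and 2 of them had a summit in GF 1, none in GF 2, 1 in WT 1 and 1 in WT 2. This run belongs to 18 members in the left part of the chromosome, of which 3 had a summit in GF 1, 1 in GF 2, 1 in WT 1 and 4 in WT 2. Other genes within 100 kb of these 18 had one in 58.1%, 4.12%, 29.9% and 64.3% of cases in the same lists.

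The third such run lay on chromosome V and held 5 srj genes, srj-18, srj-50, srj-45, srj-44 and srj-49. Of the 10 other protein-coding genes between them, 9 had a summit in GF 1, none in GF 2, 8 in WT 1 and 9 in WT 2. The nearest summits to srj-18 were not far outside the limit, at 1563 bp in GF 1, 1358 bp in WT 1 and 1362 bp in WT 2, while those to srj-44 were at 9427, 10920 and 4615 bp. Another run of 5 members without a summit in any list, in the middle part of chromosome V, held str-130, str-129, str-146, str-145 and str-90. The other genes between these were not counted. All of these runs were singled out after their values were seen.

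Of the 232 members, 92 had no summit in any list (82 str and 10 srj), 39 had one in 1 list, 42 in 2, 58 in 3 and 1 in all 4. The 140 with a summit in any list made 60.3% of the members, against 78.3% of all genes and 71.8% of similar genes. The 3 long lists, GF 1, WT 1 and WT 2, shared 57 members (24.6%), against 41.4% of all genes and 32.1% of similar genes. Of the rest, 34 members (14.7%, against 15.9% of all genes) had a summit in GF 1 and WT 2 alone, and 25 (10.8%, against 9.55%) in WT 2 alone. In GF 1 alone there were 8 (3.45%, against 4.15%). A summit in WT 1 and WT 2 but neither GF list was found at 7 members (3.02%, against 2.72%), and in WT 1 alone at 6 (2.59%, against 1.38%). These shares were close to those over all genes, apart from WT 1 alone, which rests on 6 genes. No member had a summit in both GF lists and neither WT list, a pattern found at 0.100% of all genes, so the count of 0 says little. Among members with a summit in WT 2, the median of the strongest WT 2 fold was 1.38 for the 25 found in WT 2 alone, against 1.58 for the 56 found in GF 1, WT 1 and WT 2 but not in GF 2. In GF 1 and WT 1 the order was not the same throughout: the GF 1 median was 1.53 for the 8 in GF 1 alone and 1.504 for the 34 in GF 1 and WT 2, and the WT 1 median was 1.42 for the 6 in WT 1 alone and 1.37 for the 7 in both WT lists.

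**Figure D3:**
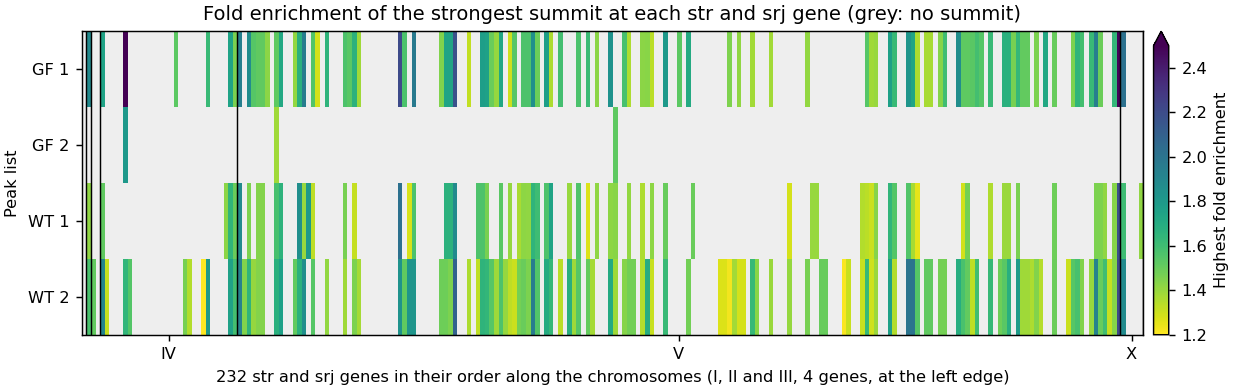
Highest fold enrichment at each of the 232 str and srj genes (columns, in their order along the chromosomes) in each peak list (rows), with grey for genes without a summit. Runs of grey columns on chromosome IV and in the left part of chromosome V mark the stretches of 9 and 8 members without a summit in any list, and GF 2 shows only 3 coloured columns.

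Members with and without a summit were of similar length. Those with no summit in any list had a median length of 1628 bp and those with a summit in any list 1570 bp. All members ranged from 660 to 25563 bp, with a median of 1604 bp, against 2020 bp for other protein-coding genes. For the members without a summit in any list, the median distance to the nearest summit was 4095 bp in GF 1 and 60130.5 bp in GF 2. It was 5869 bp in WT 1 and 3034 bp in WT 2. Such distances were not taken for other genes, so these values are not read as near or far.

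In the long lists most members with a summit had at least 1 inside the gene. This was so for 76 of the 101 members in GF 1 (75.2%), 1 of 3 in GF 2, 49 of 72 in WT 1 (68.1%) and 87 of 125 in WT 2 (69.6%). Over all genes with a summit the shares were 76.9%, 48.6%, 72.3% and 78.1%. The others had summits only in the flanks, and the gene table used has no strand, so which flank holds the start of the gene is not given. Several summits were found at 50 of the 101 members in GF 1 (49.5%), none in GF 2, 24 of 72 in WT 1 (33.3%) and 59 of 125 in WT 2 (47.2%), against 52.3%, 17.2%, 40.6% and 57.5% over all genes with a summit.

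The peaks at members were of ordinary or lower strength within each list. Members held 170 distinct summits in GF 1, 3 in GF 2, 96 in WT 1 and 203 in WT 2. Their median fold was 1.51 in GF 1, 1.52 in GF 2, 1.43 in WT 1 and 1.45 in WT 2, against 1.55, 1.51, 1.46 and 1.47 over all peaks of these lists. Strong peaks made a smaller share at these genes than in the whole list in GF 1 and WT 2, but not in WT 1. A fold above 2 was found at 5 of the 170 summits in GF 1, 3 of 96 in WT 1, 3 of 203 in WT 2 and none of 3 in GF 2. That was 2.94%, 3.13%, 1.48% and 0%, against 6.86%, 2.84%, 3.41% and 6.30% of all peaks in the same lists. Many of these summits cannot be tied to a receptor gene alone: 72 in GF 1, 1 in GF 2, 37 in WT 1 and 83 in WT 2 also lay in or within 1000 bp of another protein-coding gene.

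Merged by overlap of at least 1 bp, the peaks at members formed 256 regions, of which 62 were in GF 1, WT 1 and WT 2, and 1 of those also in GF 2. Median folds in the 62 regions were 1.61 in GF 1, 1.48 in WT 1 and 1.55 in WT 2, and GF 1 had the highest of the 3 values in 35 of them. The GF 1 median over all peaks was also the highest of these lists. Fold values of different lists are on scales set by each library, so this order was not read as a difference in binding.

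**Figure D4:**
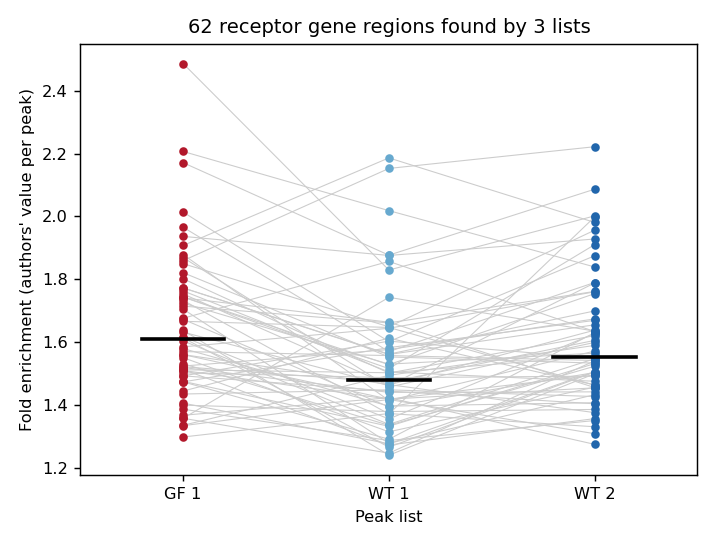
Fold enrichment in the 62 regions at str and srj genes that GF 1, WT 1 and WT 2 share; grey lines join the values of 1 region and black bars mark the medians of 1.61, 1.48 and 1.55. Most regions lie between 1.2 and 2 in each list, and few reach a fold of 2.

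The strongest peak at any member was at str-170, a str gene of chromosome IV in a run of 6 neighbouring members. Its fold was 3.65 in GF 1 (-log10 q 122.8), 1.81 in GF 2 and 1.64 in WT 2, while the nearest summit in WT 1 was 25373 bp away. So 3 lists held it and WT 1 did not. In the lists' coordinates it spanned chrIV:4880588-4880964 in GF 1, and its summits lay 425 to 439 bp outside the receptor gene. No other protein-coding gene lay within 1000 bp, but the summit of each of the 3 lists fell inside the small nucleolar RNA gene T08B6.64. Its neighbours str-172, str-174 and str-175 had no summit in any list, and str-173 and str-166 had 1 in WT 2 alone. Over all members, 2 summits in GF 1, 1 in GF 2, none in WT 1 and 1 in WT 2 lay within 200 bp of a tRNA, rRNA, snRNA or snoRNA gene, a window chosen after the values were seen.

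The 2 other members with a summit in GF 2 were srj-25 and str-206. The gene srj-25 was the only member with a summit in all 4 lists, a pattern whose share over all genes was not counted. Its folds were 1.52 in GF 1, 1.38 in GF 2, 1.58 in WT 1 and 1.67 in WT 2, each inside the gene. The GF 2 peak of srj-25 was weak, with a -log10 q of 2.21. The neighbouring srj-24, 1047 bp from the GF 2 summit, had its own peak in GF 1 (1.72), WT 1 (1.66) and WT 2 (1.76). At str-206 the GF 2 summit (1.52) lay 522 bp outside the gene and within 1000 bp of rme-1, an endocytosis gene. The WT 1 (1.43) and WT 2 (1.39) summits lay inside str-206 at another place, and GF 1 had none within 1000 bp. Thus the GF 2 peak at str-206 was not the peak of the other lists.

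By mean fold over GF 1, WT 1 and WT 2, str-81 came first, with 2.49, 2.19 and 2.22. It is the longest member by far, at 25563 bp, and held 11 summits in GF 1, 7 in WT 1 and 10 in WT 2. The strongest in GF 1 and in WT 2 lay within 1000 bp of the gene sqst-3, and that in WT 1 lay near no other protein-coding gene. The strongest summits of these lists lay in separate regions, so the mean fold of str-81 joins different peaks. Several weaker ones lay near fbxb genes of the F-box family. Most of the summits at str-81 can thus not be tied to the receptor gene alone.

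For str-39 the folds were 2.17 in GF 1, 1.88 in WT 1 and 2.09 in WT 2, in a single peak per list (chrV:2880028-2880391 in GF 1) that lay 329 to 354 bp outside the gene with no other protein-coding gene within 1000 bp. At srj-19 they were 2.21, 2.02 and 1.84, with the strongest summit 415 to 457 bp outside the gene, where Y45G12C.1 also lies within 1000 bp. On chromosome X, str-79 had 2.01, 1.60 and 1.87, with its strongest summit inside the gene in each list. These 3 genes and str-81 and str-170 hold all the members' peaks with a fold above 2.

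The remaining genes of the first 10 by mean fold were str-121, str-227, str-38, str-33, str-89 and srj-38, with means from 1.74 to 1.91. The peak at str-121 was also near oac-39, an acyltransferase family gene, and that at srj-38 in GF 1 and WT 2 near the chemoreceptor gene srg-53. At str-89 the lists did not share a place: GF 1 (1.95) and WT 2 (1.92) had a summit 386 to 392 bp from one side of the gene, and WT 1 (1.46) had one 129 bp from the gene beside str-93. The strongest summit also differed in place at str-38 and str-33 (WT 2 apart from GF 1 and WT 1). At srj-38 that of WT 1 lay apart from those of GF 1 and WT 2. The mean folds of these genes thus join different peaks. A summit near both genes of a pair was found, among other pairs, at srj-24 with srj-25, str-27 with str-38, and str-68 with str-69. In all, 13 summits in GF 1, 9 in WT 1 and 17 in WT 2 served 2 members, and none served more.

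Of 7 members that had a summit in WT 1 and WT 2 but in neither GF list, 6 fell under the rule for named genes, among them str-13 (1.28 in WT 1 and 1.82 in WT 2) and str-83 (1.40 and 1.68). The others were str-92 (1.42 and 1.60), str-69 (1.56 and 1.33), str-225 (1.37 and 1.47) and srj-21 (1.28 and 1.41). At str-92 and str-225 the WT 1 and WT 2 values belong to different peaks. At the place of the WT 1 peak of str-225, the WT 2 fold was 1.25. The nearest GF 1 summits to these 6 genes lay at 1004 bp for str-69, 1125 bp for str-92 and 1130 bp for str-83. They lay at 1323 bp for str-225, 1387 bp for str-13 and 3341 bp for srj-21. The summit of str-83 lay near nlp-34, a neuropeptide-like gene, and that of srj-21 near selt-1.2. At 5 of these 6 genes GF 1 thus had a summit outside the limit of 1000 bp but under 2000 bp. This was not always the peak of the WT lists. At str-69 the GF 1 peak overlapped those of WT 1 and WT 2, but at str-13 it was a separate peak. Over all members the GF 1 share was 43.5% with a limit of 1000 bp and 62.5% with 2000 bp. At the limit itself, str-226 (993 bp) was just inside and str-69 (1004 bp) just outside in GF 1, and str-131 was inside in WT 1 (1000 bp) and outside in WT 2 (1001 bp).

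Of 5 members with a known neuron or odour, 4 had no summit within 1000 bp in any list. Of all 232 members, 92 had none, and 60.3% of members and 78.3% of all genes had a summit in any list. With 5 genes picked by name, the count of 4 says little. The gene str-3, expressed in ASI, had its nearest summit at 1686 bp in GF 1, 9562 bp in GF 2, 9681 bp in WT 1 and 1709 bp in WT 2. The GF 1 (1.62) and WT 2 (1.59) peaks lay by srlf-18 and srlf-17, and the GF 2 and WT 1 peaks by pigk-1 and rps-5. No list therefore placed a summit within 1000 bp of str-3.

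The gene str-1, a marker of the AWB neurons, and its neighbour str-44, a receptor gene of the AWA neurons, shared their nearest peak. It lay 1163 bp from str-1 in GF 1, 1151 bp in WT 1 and 1129 bp in WT 2, and 1016, 1028 and 1050 bp from str-44, at the gene C42D4.19. Its fold was 1.56 in GF 1, 1.47 in WT 1 and 1.43 in WT 2, while the nearest GF 2 summit was 65626 bp from str-1 and 62211 bp from str-44. Both thus fell just outside the distance limit in the long lists. For str-2, which marks 1 of the AWC neuron pair, a peak lay at 2070 bp in GF 1 (1.82), 2073 bp in WT 1 (1.46) and 2051 bp in WT 2 (1.54), with no protein-coding gene within 1000 bp, and at 33023 bp in GF 2. The gene str-217, needed in worms for the response to the repellent DEET, had a summit inside the gene in GF 1 (1.65) and WT 2 (1.58), while its nearest summit was 115732 bp away in GF 2 and 5433 bp away in WT 1.

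**Figure D5:**
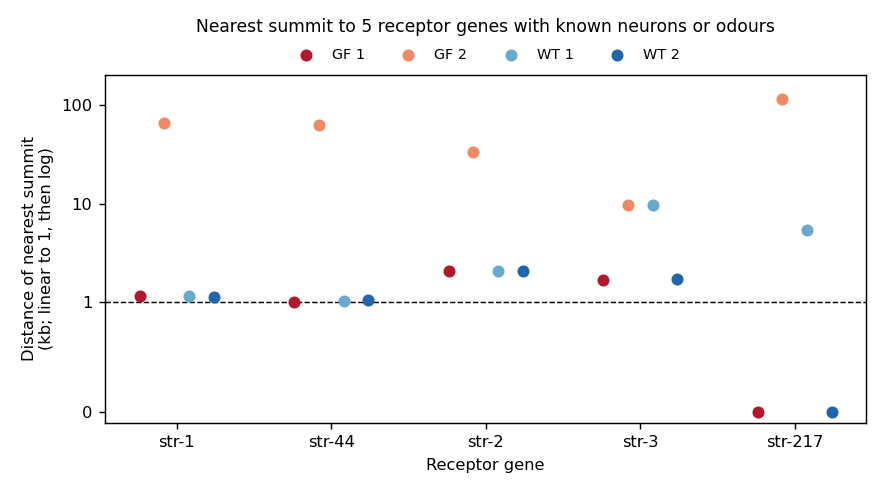
Distance from 5 receptor genes to the nearest summit in each list, in kb on an axis that is linear up to 1 kb and logarithmic above; the dashed line is the limit of 1 kb. Only str-217 lies under the line, in GF 1 and WT 2, while str-1 and str-44 lie just above it in GF 1, WT 1 and WT 2.

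Genes that act with these receptors had shares of summits that could not be set apart from those of genes of their chromosome and length. Of 40 listed names of genes of olfactory signalling, receptor transport and receptor choice, 38 matched the table, and of the others nsy-5 is a second name of inx-19, which matched, while ufsp-2 had no match. The 38 genes had a median length of 4323 bp. A summit was found at 24 of them in GF 1 (63.2%), 4 in GF 2 (10.5%), 22 in WT 1 (57.9%) and 31 in WT 2 (81.6%). Similar genes had 75.3%, 4.66%, 61.3% and 78.6%, and each 95% interval of the pathway genes' share included the value of similar genes. With 38 genes these intervals are wide, so a moderate difference could not have been seen.

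Among these genes, 3 had a summit in all 4 lists. The share of all genes with that pattern was not counted, so no excess is read from it. GF 2, the shortest list, had a summit at 5.46% of all genes. Of the 3 genes, tir-1 (32053 bp) and unc-43 (25964 bp) are long. The strongest was tir-1, which encodes a TIR domain adaptor of the pathway that sets str-2 asymmetry, with folds of 2.77 in GF 1, 2.25 in GF 2, 1.88 in WT 1 and 2.68 in WT 2 over a gene of 32053 bp. The second was mef-2, whose product represses chemoreceptor genes downstream of the kinase gene kin-29 (1.75, 1.62, 1.64 and 1.81), and the third was unc-43, the CaMKII gene (1.501, 1.59, 1.65 and 1.65). By mean fold over the 3 long lists, tir-1 was followed by inx-19, an innexin gene of the same asymmetry pathway (2.19 in GF 1, 2.04 in WT 1 and 1.69 in WT 2). Then came odr-7, a nuclear receptor gene of AWA (2.03, 1.85 and 1.67), osm-9, a TRPV channel gene (1.90, 1.69 and 1.88), and unc-3, a transcription factor gene that acts in ASI (2.07, 1.59 and 1.72). The olfactory G protein genes gpa-2, gpa-5, gpa-6 and gpa-13 had no summit in any list, while 78.3% of all genes had one in some list. Of the other listed G protein genes, gpa-1 (1.38) and gpa-3 (1.30) had a summit in WT 2 alone. The gene odr-3 had one in GF 1 (1.46), WT 1 (1.46) and WT 2 (1.43). For odr-10, the str class receptor outside the symbol rule, a summit was found in GF 1 (1.38) and WT 2 (1.26).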

How the data were processed

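The authors deposited 1 narrowPeak list per precipitated sample, so peaks were called per sample. Build ce10, MACS2 2.2.7.1 (which calls peaks), BWA 0.7.17 (an aligner), SAMtools 1.10 and Trim Galore 0.6.4 are named, with no settings and no control, per the submitters' processing notes. For every peak the authors gave a fold enrichment (a ratio), a -log10 p, a -log10 q and a score of about 10 times the -log10 q. The lowest -log10 q was 1.3.

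Genes, with their names, positions and lengths, came from a RefSeq table of assembly WBcel235, another build than that of the lists. All counts and distances set these gene positions against the lists' coordinates without conversion. The table has no strand, and no sequence was used. Summits were moved by 100 bp either way as a check on the builds. The offset between the builds was not measured, so calls close to the 1000 bp limit are uncertain. Tables were made with pandas 2.3.3 and NumPy 2.4.6, intervals and tests with SciPy 1.17.1 and figures with matplotlib 3.10.9, under Python 3.11.15. Samples were grouped by title. The counting was tested on simulated lists.

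The members, the lists and the rule for named genes were chosen with earlier results of these data known. That rule took members in all 4 lists, those in GF 2, those in both lists of 1 genotype and none of the other (up to 6), and the 10 highest by mean fold. It also took those of 3 regions with most members, and 5 members of known role. As 21 regions held 2 members and none held more, the 3 regions were part of a tie. The labels give both genotypes replicate numbers 1 and 2 but no shared batch. The deviations of GF 1 and WT 1 from their genotype means had a correlation of -0.017 over all genes and -0.19 over the members.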

Additional observations from a re-analysis of the deposited data

How the results depend on the processing

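The members' ratio to similar genes stayed below 1 in every list under each alternative run (GF 2 could not be cut to 5000 peaks), between 0.35 and 0.92 in GF 1, 0.23 and 0.47 in GF 2, 0.61 and 0.86 in WT 1, and 0.28 and 0.89 in WT 2. It left the 95% interval of the reported value in GF 1 with a limit of 2000 bp (0.92), in WT 1 with a -log10 q of at least 5 (0.61), with lists cut to the length of GF 2 in GF 1 (0.35) and WT 2 (0.28), and with the strongest 5000 peaks in GF 1 (0.51), WT 1 (0.67) and WT 2 (0.63). The cause was not tested. The GF minus WT difference in ratio was negative under each alternative and ranged from -0.49 to -0.058 as single lists were left out. The difference in share ranged from -41.2 to 1.08 percentage points, and turned positive (1.08) only without GF 2. With the replicate number as a block these differences were -20.0 points and -0.275 by construction, with exact p of 1 for the share and 0.5, the smallest possible, for the ratio. Crossing the numbers (exact p = 0.5 for both) left the values the same. The str ratio was below 1 in each list under each alternative. The srj ratio was above 1 in 13 of 15 alternatives in GF 1, 6 of 14 in GF 2, 13 of 15 in WT 1 and 10 of 15 in WT 2. Giving each summit to its nearest gene only, leaving out the peak-free stretch and crossing the numbers were chosen after seeing the data.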

Other observations

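The gene table also names 39 str and srj pseudogenes, with a median length of 1309 bp. A summit in or within 1000 bp was found at 19 of them in GF 1 (48.7%), none in GF 2, which allows a share of up to 7.69%, 13 in WT 1 (33.3%) and 21 in WT 2 (53.8%). All 1921 pseudogenes of the table had one in 50.6%, 1.82%, 35.8% and 55.8% of cases in the same lists.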
